A study of Mus musculus with 47 samples.

Results

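The immediate early genes Jun, Junb, Jund, Fos, Fosb, Egr1, Egr2, Egr3, Atf3 and Ier2 were followed in muscle stem cells over the day on a control and a high-fat diet. These 10 genes were chosen by symbol, with earlier results of these data known, out of 17097 genes with a probe set of their own. Each was read from the probe set with the highest mean. All 10 passed the filter on low values and were among the 10258 genes tested. Muscle stem cells, or satellite cells, are the resident stem cells of skeletal muscle. RNA came from 47 wild-type female C57B6/J mice, 1 array per mouse, that had free access to a high-fat diet or to its control diet from 8 weeks of age for 7 weeks and were 15 weeks old at collection. There were 24 control and 23 high-fat mice, collected at zeitgeber times ZT0, ZT4, ZT8, ZT12, ZT16 and ZT20, where ZT counts hours from lights on. Each of the 12 groups held 4 mice labelled as biological replicates, except high-fat ZT16 with 3. Both diets of a time were collected on 1 day, so time and collection day cannot be told apart within a diet, while each contrast between diets lies within a day.

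Immediate early genes are transcribed within minutes of a signal from existing factors, without new protein synthesis. Serum response factor and its partners act at CArG boxes, and CREB and ATF factors act at cyclic AMP response elements. Jun proteins pair with each other or with Fos proteins to form AP-1, Egr proteins are zinc finger activators, Atf3 is a stress-induced factor of the CREB and ATF family, and Ier2 encodes a further early response protein. In muscle stem cells these genes are known to respond to injury and also to the enzymatic dissociation of the tissue.

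The upstream windows of the members show where such elements lie. They are RefSeq sequences of GRCm38.p6, matched by symbol for 7 of the 10 genes. Egr1, Egr3 and Ier2 had no window, so nothing can be said of their elements. Windows of 250 bases before the annotated start were searched on both strands for the CArG box and for 6 runs of letters. Elements farther upstream were not searched, so a window without a match does not mean a gene without the element. The core of the cyclic AMP response element was taken as TGACG and its full form as TGACGTCA, in which the core is contained. The AP-1 site was taken as TGANTCA, the AP-1-like octamers of the Jun promoter as TGACATCA and as TTACCTCA, and the Egr site as GCGNGGGCG. Since these octamers were defined from the Jun promoter, their matches in the Jun window only show their place and are no finding. Of all 32851 mouse windows searched, 1.47% held a CArG box, 17.8% TGACG, 1.55% TGACGTCA, 6.75% TGANTCA, 2.93% TGACATCA, 0.728% TTACCTCA and 4.7% GCGNGGGCG. Capitals mark the matches in the 3 windows below, which belong to genes called higher on the high-fat diet at ZT16.
Fos: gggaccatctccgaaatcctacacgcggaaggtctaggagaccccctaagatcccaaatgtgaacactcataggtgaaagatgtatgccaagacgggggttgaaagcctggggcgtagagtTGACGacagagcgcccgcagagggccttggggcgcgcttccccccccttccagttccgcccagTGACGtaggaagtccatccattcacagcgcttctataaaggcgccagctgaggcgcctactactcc
Jun: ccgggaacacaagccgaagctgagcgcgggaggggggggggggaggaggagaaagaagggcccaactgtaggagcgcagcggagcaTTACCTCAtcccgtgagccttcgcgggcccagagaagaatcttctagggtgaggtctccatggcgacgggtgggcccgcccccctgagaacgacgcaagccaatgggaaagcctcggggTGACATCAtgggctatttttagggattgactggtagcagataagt
Junb: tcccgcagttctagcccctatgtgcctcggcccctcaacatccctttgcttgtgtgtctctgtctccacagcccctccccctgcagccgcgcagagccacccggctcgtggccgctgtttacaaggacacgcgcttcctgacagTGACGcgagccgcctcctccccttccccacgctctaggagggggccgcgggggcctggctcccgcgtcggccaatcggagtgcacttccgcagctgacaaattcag
The Fos window lies at chr12:85473640-85473889 on the plus strand and held TGACG at 129 to 125 and at 66 to 62 bases before the start. The Jun window lies at chr4:95052223-95052472 on the minus strand and held TTACCTCA at 164 to 157 and TGACATCA at 45 to 38 bases before the start. The Junb window lies at chr8:84978749-84978998 on the minus strand and held TGACG at 106 to 102 bases before the start. Windows of genes not called at ZT16 held matches too. The Atf3 window held TGACG at 7 to 3 bases before the start. The Fosb window held TGACG at 60 to 56 and GCGNGGGCG at 50 to 42 bases before the start. No match was marked in the Jund window. A match is only a run of letters, and binding was not measured.

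Egr2 has 5 annotated starts with a window, and 4 of these windows held a CArG box. The windows that begin at chr10:67537619, 67537620 and 67537680 overlap and hold the same downstream box, so they are not separate matches. These windows also held TGACG, in the one that begins at 67537619 at 111 to 107 and at 55 to 51 bases before the start. The boxes are shown in capitals with 10 bases on either side, because Egr2 had the largest diet difference of the 10 genes.
Egr2, upstream box: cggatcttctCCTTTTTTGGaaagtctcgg
Egr2, downstream box: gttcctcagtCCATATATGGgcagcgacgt
They lie at chr10:67537484-67537513 and chr10:67537787-67537816 on the plus strand, both inside the annotated span of the gene (67534469 to 67542188).

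The values are log2 expression values, so a difference of 1 is a doubling. Array medians lay between 5.86 and 5.94, and the mean correlation of an array with its own group was between 0.969 and 0.987. Within groups the members varied with a pooled SD from 0.06 (Egr1, Fos, Fosb) to 0.22 (Ier2), beside a median of 0.19 over all genes tested. Several members read high on the array: the highest Fosb value was 12.85, and the highest value in the whole table was 13.09. Whether differences are compressed there was not tested.

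At ZT16 the Jun, Junb, Fos, Egr1 and Egr2 transcripts were higher on the high-fat than on the control diet. Differences ran from 0.14 (Fos) to 0.45 (Egr2) on the log2 scale, or 1.10-fold to 1.36-fold. These 5 of 10 genes passed the test (limma, adjusted p under 0.05) and none was lower, whereas 13.3% of all genes tested were called at ZT16. With direction, 6.13% of all genes were called higher and 7.13% lower in high-fat mice. All 10 members had a higher mean on the high-fat diet, as did 46.6% of all genes. For 8 members every high-fat mouse lay above every control mouse, as for 13.3% of all genes. The median member difference was 0.21, beside -0.02 over all genes. Since the members were chosen with earlier results of these data known, the shares of all genes are a description, not a test.

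**Figure D1:**
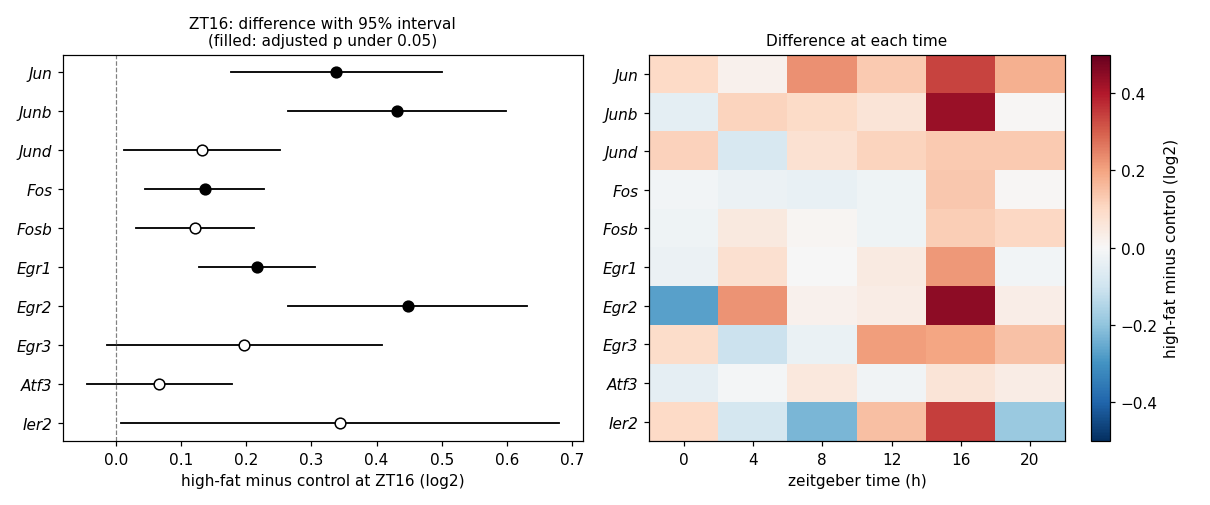
Left: high-fat minus control difference at ZT16 on the log2 scale for each gene, from 4 control and 3 high-fat mice. Bars are the 95% interval from limma, with the spread estimated over all 12 groups. Filled points have an adjusted p under 0.05. Right: the difference at each of the 6 zeitgeber times, as colour on the log2 scale. The ZT16 column is the only one in which all 10 genes are positive, from 0.07 for Atf3 to 0.45 for Egr2.

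Among the Jun genes, Jun itself, the main activating partner in AP-1, read 11.21, 11.40, 11.25 and 11.32 in the control mice and 11.65, 11.59 and 11.66 in the high-fat mice at ZT16. The diets did not overlap, and the difference was 0.34 ± 0.08 (SE; 95% interval 0.18 to 0.50; limma adjusted p = 0.00394). Junb, which can also restrain Jun, read 9.92, 10.09, 10.13 and 10.135 in control mice and 10.50, 10.44 and 10.57 in high-fat mice. Its difference of 0.43 ± 0.08 (1.35-fold; limma adjusted p = 0.000414) had the smallest p of the 10 genes. Jund, the more constantly expressed Jun gene, read 12.11, 12.07, 12.16 and 12.08 against 12.22, 12.17 and 12.325. The Jund groups did not overlap either, but the difference of 0.13 ± 0.06 (interval 0.01 to 0.25) did not pass (limma adjusted p = 0.131), except with array weights (0.0221).

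Jun has a second probe set, which gave 0.45 at ZT16 (limma adjusted p = 0.000926). The second Jund probe set, which has a mean of only 6.19, went the other way, with -0.365 at ZT16 (limma adjusted p = 0.0237). The direction for Jund therefore depends on the probe set.

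Of the Fos genes, which bind DNA only as partners of Jun proteins, Fos read 12.21, 12.24, 12.21 and 12.21 in control mice and 12.33, 12.345 and 12.38 in high-fat mice at ZT16. The groups were clearly apart but the step was small, 0.14 ± 0.05 (1.10-fold; limma adjusted p = 0.0402). That call was lost when any 1 of the 7 ZT16 mice was left out, with adjusted p between 0.0533 and 0.155, and without the variance trend (0.106). Fosb read 12.75, 12.69, 12.71 and 12.62 against 12.79, 12.80 and 12.85. The groups did not overlap, and the difference of 0.12 ± 0.05 (interval 0.03 to 0.21) missed the threshold (limma adjusted p = 0.0625). Fosb passed without replicate 2 of control ZT0 (0.0334) or replicate 1 of control ZT16 (0.042), with cyclic loess (0.0392), with array weights (0.00758) and in a fit of the ZT16 mice alone (0.0433).

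Of the Egr genes, Egr1, a zinc finger activator induced in many cell types, read 12.34, 12.39, 12.33 and 12.35 in control mice and 12.56, 12.50 and 12.64 in high-fat mice. No control mouse reached the lowest high-fat mouse, and the difference was 0.22 ± 0.04 (interval 0.13 to 0.31; limma adjusted p = 0.000858). Egr2, known for its role in peripheral nerve myelination, read 11.14, 11.12, 10.90 and 10.89 against 11.56, 11.38 and 11.44. It had the largest difference, 0.45 ± 0.09 (interval 0.26 to 0.63; limma adjusted p = 0.000863), and its second probe set gave 0.52 (0.000239). Egr3, involved in muscle spindle development, read 8.16, 8.07, 8.04 and 7.96 against 8.00, 8.36 and 8.40. One high-fat mouse lay among the controls, and the difference of 0.20 ± 0.10 (interval -0.01 to 0.41) did not pass (limma adjusted p = 0.211).

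Atf3 read 11.68, 11.80, 11.74 and 11.80 in control mice and 11.77, 11.81 and 11.88 in high-fat mice at ZT16, so the diets overlapped. Its difference was the smallest of the 10, 0.07 ± 0.06 (interval -0.05 to 0.18; limma adjusted p = 0.457). Ier2 read 7.87, 8.23, 8.23 and 8.30 against 8.55, 8.46 and 8.49. The groups did not overlap, but with the widest spread of the 10 genes the difference of 0.34 ± 0.17 (interval 0.01 to 0.68) did not pass (limma adjusted p = 0.165).

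No member was called between diets at the other 5 times. The share of all genes called by limma was 3.56% at ZT0, 0.312% at ZT4, 1.78% at ZT8, 0.858% at ZT12 and 0.819% at ZT20. The members with an unadjusted limma p under 0.05 numbered 2 at ZT0, 1 at ZT4, 1 at ZT8, 2 at ZT12 and 3 at ZT20. The shares above are of adjusted calls, so these unadjusted counts cannot be set against them. No share of all genes is given for the unadjusted counts. Median member differences were -0.02 at ZT0, 0.01 at ZT4, 0.02 at ZT8, 0.05 at ZT12 and 0.04 at ZT20. The nearest to a call was Egr2 at ZT0, which went opposite to ZT16: all control mice lay above all high-fat mice, as for 6.16% of all genes (means of 11.27 and 10.997), with a difference of -0.27 ± 0.08 (limma adjusted p = 0.062). Egr2 at ZT0 passed without replicate 3 of control ZT0 (0.0399) or replicate 3 of high-fat ZT4 (0.0387). Next came Jun at ZT8, with 0.23 ± 0.07 (limma adjusted p = 0.0904) and overlapping groups, which passed without replicate 2 of control ZT8 (0.0416). Jund at ZT20 was the only other case without overlap, with all high-fat mice above all control mice, as for 2.29% of all genes, and a difference of 0.13 ± 0.06 (limma adjusted p = 0.253). Jund at ZT0 was 0.12 ± 0.06 higher on the high-fat diet, and passed only without replicate 3 of high-fat ZT0 (limma adjusted p = 0.0465). The second Jund probe set went the other way at ZT0, with -0.26 (limma adjusted p = 0.157), and gave 0.04 at ZT20 (0.928).

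Whether the diet difference itself changed with time was tested with the interaction F test. It was called for 3 of the 10 members, beside 12.4% of all genes. Egr2 had a limma adjusted p of 0.00339, with differences spanning 0.72 from ZT0 to ZT16. Egr1 had 0.0282, with a span of 0.25, and Junb 0.0346, with a span of 0.48. Egr2 and Junb were not called without the ZT0 mice (0.0574 and 0.0783). None of the 3 was called without the ZT16 mice, with adjusted p of 0.0896 for Egr2, 0.564 for Egr1 and 0.755 for Junb. Egr1 was lost without the variance trend (0.123), and also without control ZT16 replicate 3 or 4 or high-fat ZT16 replicate 1 or 3 (0.0505 to 0.118). Junb was lost without control ZT16 replicate 1 or 2 or high-fat ZT16 replicate 1 or 3 (0.0518 to 0.117).

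Averaged over the 6 times, all 3 Jun genes and Egr1 were higher on the high-fat diet. These 4 of 10 members passed, beside 11.5% of all genes called and 4.7% called higher. Jun differed by 0.17 ± 0.03 (limma adjusted p = 0.000442), and its mean was higher on the high-fat diet at each of the 6 times. Junb differed by 0.11 ± 0.03 (0.0192) and Jund by 0.08 ± 0.02 (0.0154). Egr1 differed by 0.05 ± 0.02 (limma adjusted p = 0.0482), a call lost in 27 of the 47 fits that left out 1 mouse (0.0529 to 0.0955), with no filter on low values (0.0616) and without the variance trend (0.127). The others gave 0.01 (Fos and Atf3), 0.02 (Ier2), 0.04 (Fosb) and 0.08 (Egr2 and Egr3) and did not pass. The second Egr2 probe set gave 0.125 and passed (limma adjusted p = 0.0189), while the second Jund probe set gave -0.08 (0.244) and the mean of both Jund probe sets 0.002 (0.977).

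Without the ZT16 mice only Jun kept its average diet difference, 0.13 (limma adjusted p = 0.0201). Junb then gave 0.05 (0.499), Jund 0.07 (0.0939) and Egr1 0.02 (0.678). Egr1 was also lost without the ZT4 mice (0.108) and, with Jund, without the ZT12 mice (0.076 for Egr1 and 0.0545 for Jund). Jund was lost without the ZT20 mice as well (0.0703). Conversely, Egr2 passed without the ZT0 mice, with 0.15 (limma adjusted p = 0.0144), and Egr3 without the ZT4 mice, with 0.12 (0.0494).

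Over the day, 5 members changed between times in control mice and 8 in high-fat mice, beside 36.3% and 40.1% of all genes. Jun, Junb, Jund, Egr2 and Atf3 passed on both diets, and Fos, Egr1 and Ier2 on the high-fat diet alone. The difference itself is what the interaction above tested, and of the latter 3 genes it was called for Egr1 only. The high-fat ZT16 group had the highest mean of all 12 groups for 9 members, as for 14.1% of all genes. The exception was Egr3, whose highest mean was at high-fat ZT12.

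**Figure D2:**
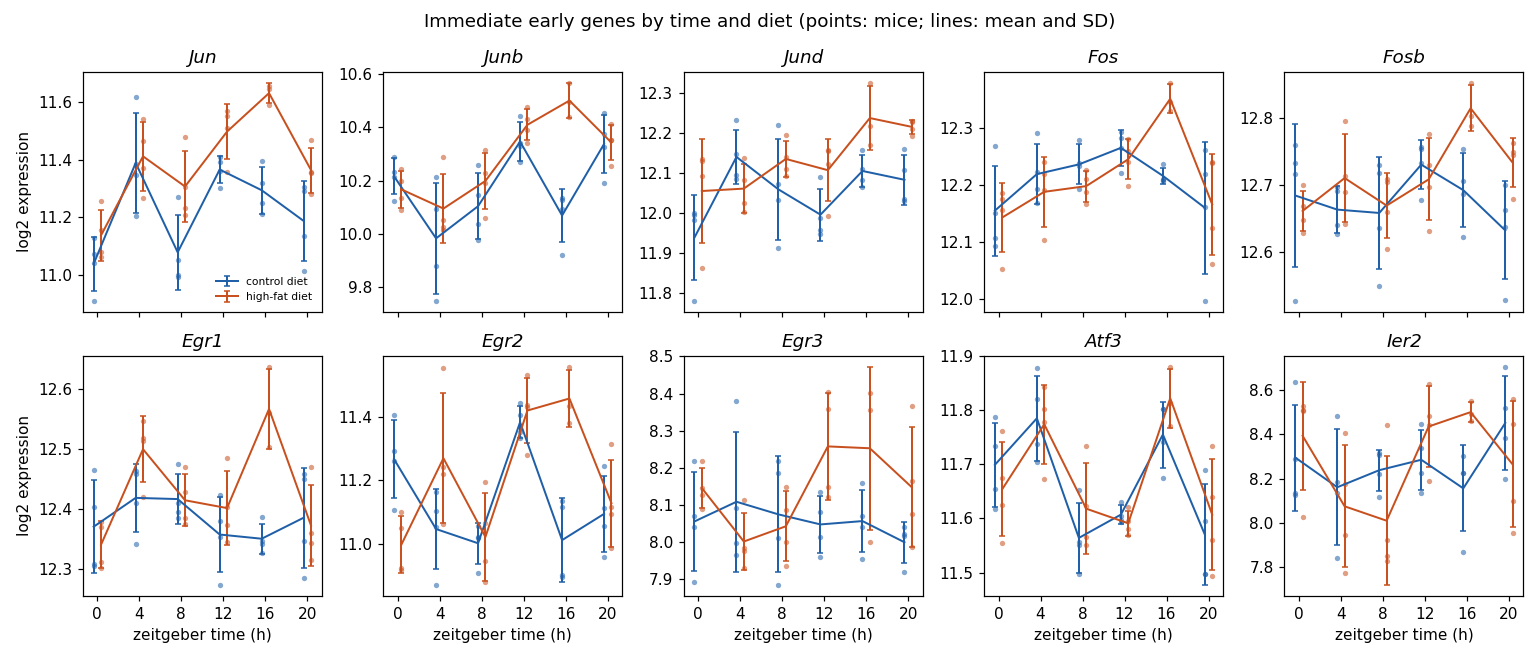
Log2 expression of each gene (y axis, own scale per panel) against zeitgeber time in hours (x axis), in blue for the control and orange for the high-fat diet; points are mice, and lines join group means with SD bars (n = 4, and 3 at high-fat ZT16). The orange line peaks at ZT16 in 9 of the 10 panels, and Atf3 has its 2 highest means at ZT4 and ZT16 on both diets.

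On the control diet Jun had its lowest mean at ZT0 (11.04 ± 0.09 SD) and its highest at ZT4 (11.39 ± 0.17), a span of 1.28-fold (limma adjusted p = 0.000463 over times). On the high-fat diet Jun ran from 11.14 ± 0.09 at ZT0 to 11.63 ± 0.04 at ZT16, or 1.41-fold (0.000137). All high-fat ZT16 mice lay above all high-fat ZT12 mice, the next group in the order.

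Junb on the control diet was lowest at ZT4 (9.98 ± 0.21 SD) and highest at ZT12 (10.35 ± 0.07), and read 10.07 ± 0.10 at ZT16 and 10.34 ± 0.11 at ZT20 (limma adjusted p = 0.000647). On the high-fat diet it read 10.41 ± 0.06 at ZT12 and 10.50 ± 0.07 at ZT16 (0.000573 over times). The diets thus had similar means at ZT12 and ZT20, 0.06 and 0.01 apart, and differed at ZT16 between them.

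Egr2 ran a like course from ZT12 to ZT16 only. Unlike Junb, its control mean stayed low at ZT20 (11.09 ± 0.12 SD), where the high-fat mean fell to 11.13 ± 0.14. Control mice read 11.27 ± 0.12 at ZT0, 11.38 ± 0.05 at ZT12 and 11.01 ± 0.13 at ZT16 (SD; limma adjusted p = 0.0011 over times). High-fat mice read 10.997 ± 0.09 at ZT0, 11.42 ± 0.10 at ZT12 and 11.46 ± 0.09 at ZT16 (5.27e-05). The ZT16 difference in Junb and Egr2 was thus made of a lower control mean than at ZT12 and a high-fat mean that stayed near its ZT12 level.

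Jund on the control diet was lowest at ZT0 (11.94 ± 0.11 SD) and highest at ZT4 (12.14 ± 0.07), with a limma adjusted p of 0.0284. That call was lost without replicate 2 of control ZT0 (0.103) or of control ZT4 (0.0594). On the high-fat diet Jund ranged from 12.055 at ZT0 to 12.24 at ZT16 (limma adjusted p = 0.0286), and the call was lost without replicate 3 of high-fat ZT16 (0.0848). Both Jund calls were lost with the mean of its probe sets (limma adjusted p = 0.0981 in control and 0.0928 in high-fat mice) and without the variance trend (0.0778 and 0.0789). The control call was also lost with the other probe set (0.0699).

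Fos on the high-fat diet had a mean of 12.14 at ZT0 and 12.35 at ZT16, a span of 1.16-fold (limma adjusted p = 0.00483), with all ZT16 mice above all ZT12 mice. On the control diet its span was 1.08-fold and did not pass. Fosb spanned 1.07-fold in control and 1.11-fold in high-fat mice, neither called, the latter with a limma adjusted p of 0.0557. Egr1 spanned only 1.05-fold in control mice and 1.17-fold in high-fat mice, where it passed (limma adjusted p = 0.000552).

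For Atf3 the 2 highest means on both diets were at ZT4 and ZT16, and the lowest was at ZT8 (control) or ZT12 (high-fat). Control mice read 11.79 ± 0.08 at ZT4, 11.56 ± 0.07 at ZT8, 11.61 ± 0.02 at ZT12, 11.75 ± 0.06 at ZT16 and 11.57 ± 0.09 at ZT20 (SD; limma adjusted p = 0.000926). High-fat mice read 11.77 ± 0.07, 11.62 ± 0.08, 11.59 ± 0.02, 11.82 ± 0.06 and 11.61 ± 0.10 at the same times (limma adjusted p = 0.00166). Day and time cannot be told apart here, and both diets share their days.

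Ier2 ranged from 8.16 (ZT16) to 8.45 (ZT20) on the control diet, which did not pass, and from 8.01 (ZT8) to 8.50 (ZT16) on the high-fat diet, which did (limma adjusted p = 0.0438). The latter call was lost in 14 of the 47 fits that left out 1 mouse (0.0569 to 0.0952) and with no filter on low values (0.0562). Egr3 spanned 1.08-fold in control and 1.19-fold in high-fat mice and passed on neither. In the order of the 6 means, neighbouring times overlapped for every member on both diets, except high-fat ZT16 over its neighbour for Jun, Fos and Fosb, a pattern held by 3.49% of all genes.

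A 24 h cosine called 3 members rhythmic on the high-fat diet, beside 16.9% of all genes, and none on the control diet, beside 10.5%. On the control diet 1 member, Fos, had an unadjusted limma p under 0.05. Junb on the high-fat diet had an amplitude (mean to peak) of 0.20 ± 0.04 with a fitted peak at 15.45 h (limma adjusted p = 0.00175). Jun had 0.16 ± 0.04 (0.0299) and Fos 0.07 ± 0.02 (0.0202), both with a fitted peak at 13.8 h. With collection day as a random block Junb alone was called, and Jun (limma adjusted p = 0.0846) and Fos (0.128) were not. Fos was also lost without the variance trend (0.0714). The difference in rhythm between diets was called for none of the members, beside 2.11% of all genes. There 1 member, Egr3, had an unadjusted limma p under 0.05. For the unadjusted counts of Fos and Egr3 no share of all genes is given. Without the ZT16 mice the Jun and Fos rhythms were not called (limma adjusted p = 0.239 and 0.244) and Junb passed on both diets (0.00102 in control and 0.00649 in high-fat mice). Without the ZT0 mice Jun (0.278) and Fos (0.0821) were not called, and without the ZT12 mice Jun was not (0.0765). Jun was also lost without replicate 1, 3 or 4 of high-fat ZT0 or any of the 3 high-fat ZT16 mice (0.0539 to 0.0718). Fos was lost without replicate 1 of high-fat ZT0 or replicate 1 or 3 of high-fat ZT16 (0.0506 to 0.0636). Calls were also gained. On the control diet Jun passed without the ZT4 mice, with an amplitude of 0.19 (limma adjusted p = 0.0011), or without the ZT8 mice (0.0491). On the high-fat diet Egr2 (0.17 ± 0.05, limma adjusted p = 0.0585) passed without replicate 1 or 3 of high-fat ZT4 or replicate 1 or 3 of high-fat ZT8 (0.00942 to 0.0464). The second Jun probe set gave an amplitude of 0.05 on the high-fat diet (limma adjusted p = 0.797), and the mean of both 0.10 (0.278). The second Egr2 probe set gave 0.21 and passed (limma adjusted p = 0.0208), as did the mean of both, with 0.19 (0.0309).

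Within groups, members also varied together from mouse to mouse. After the 12 group means were removed, 12 of the 45 pairs correlated over the 47 mice (adjusted permutation p under 0.05), all positively. The median r over the pairs was 0.315 (range -0.21 to 0.69), as was the median size of r. Between a member and other tested genes the median r was -0.01 and the median size of r was 0.15. No share of called pairs is given for other genes, so the 12 of 45 cannot be set against one. The strongest pair was Fos and Egr1, with r = 0.69 and rho = 0.66 (adjusted permutation p = 0.0009 for both), and r = 0.62 without the 2 mice farthest from the Fos median. Atf3 and Ier2 gave r = 0.60 and rho = 0.59 (adjusted permutation p = 0.00765 and 0.0128), and r = 0.55 without 2 mice. Jun correlated with Fos at r = 0.56 and with Junb at r = 0.54 (adjusted permutation p = 0.00765 and 0.0209). Egr3 took part in none of the 12 pairs, and neither did Fosb.

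**Figure D3:**
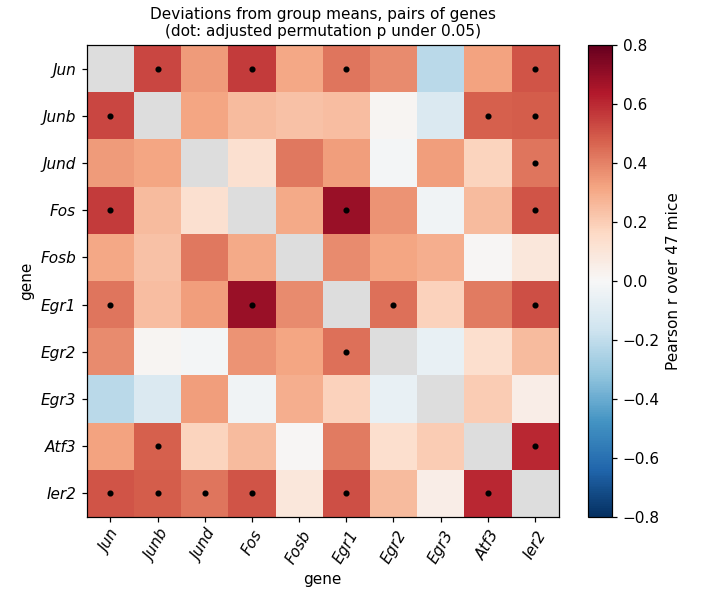
Pearson r between each pair of the 10 genes over 47 mice, as colour, from deviations from the mean of the mouse's diet and time; dots mark an adjusted permutation p under 0.05. The 12 marked pairs are all positive, and the darkest cell is Fos with Egr1 (0.69).

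The arrays share their amplification and scaling, whose part in this correlation was not tested. In the 24 control mice alone none of the 45 pairs was called, and in the 23 high-fat mice 4 were, each test having fewer mice than the pooled one. The median r was 0.24 in control and 0.36 in high-fat mice.

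With the group means left in, Jun followed the mean of the other 9 members most closely (r = 0.71), then Fos and Egr1 (0.63 each) and Fosb (0.62), and Atf3 least (0.32). The 6 other genes most like the members' mean over the 47 mice were Sesn1, a stress-responsive sestrin (r = 0.78), Dnlz (0.78), Adamtsl4 (0.78), Socs3, a cytokine feedback inhibitor (0.74), Nedd4l, a ubiquitin ligase (0.72), and Pld1, a phospholipase (0.72). These genes differed between diets at ZT16 by more than the members: the control and high-fat ZT16 means were 9.26 and 10.42 for Sesn1 and 8.22 and 9.67 for Pld1. The 6 genes were picked with the group means left in, so a ZT16 difference is partly built into the choice.

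Other immediate and delayed early genes were taken from a list of 38, of which 32 were tested. This and the following lists were also chosen with earlier results of these data known. At ZT16, 10 of the 32 were higher in high-fat mice and none was lower, beside 6.13% and 7.13% of all genes. A positive difference was found for 28, beside 46.6% of all genes, and the median was 0.20 beside -0.02 over all genes. Btg2, an antiproliferative early gene, differed by 0.54 (limma adjusted p = 2.31e-05), Socs3 by 0.78 (0.000899), Klf2 by 0.69 (0.00246) and Klf9 by 0.11 (0.0224). The orphan receptor genes Nr4a1 and Nr4a2 were lower on the high-fat diet at ZT0, by -0.47 (0.000158) and -0.73 (0.000149), and did not pass at ZT16, with 0.16 and -0.26. At ZT0, 2 of the 32 genes were higher and 3 lower, beside 3.56% of all genes called in either direction. Averaged over the day, 4 of the 32 were higher and 4 lower, beside 11.5% of all genes called and 4.7% called higher. Among those of the list were Gadd45a, a growth arrest gene, with 0.25 (limma adjusted p = 5.79e-05), Dusp8, a MAP kinase phosphatase, with 0.23 (0.0177), and the kinase gene Pim1 with -0.17 (0.00211).

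Of 12 tested partners of AP-1 from the same family of factors, 1 was higher (6.13% of all genes) and none lower (7.13%) at ZT16. It was Fosl2, a further Fos gene, with 0.35 (limma adjusted p = 0.000268), and its difference also changed with time (0.000247). The list's median was -0.06. Averaged over the day, Atf7 (0.20; limma adjusted p = 0.00204) and Creb1 (0.16; 0.0231) were higher and Mafk (-0.06; 0.046) lower.

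Of 13 tested upstream kinases and serum response factors, 1 was higher (6.13% of all genes) and 3 lower (7.13%) at ZT16, with a median of -0.07. Map3k8, a kinase upstream of ERK and JNK, was higher by 0.83 (limma adjusted p = 0.0038). Srf, the serum response factor gene itself, gave -0.365 (0.00235), Rps6ka3, an ERK-activated kinase, -0.65 (8.09e-05) and Map3k1, a kinase upstream of JNK, -0.37 (0.0113).

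Of 10 tested Egr co-repressors and AP-1 targets, none was higher (6.13% of all genes) and 2 were lower (7.13%) at ZT16. The 2 were Ccnd1, the cyclin D1 gene, with -0.78 (limma adjusted p = 0.00797), and the adhesion receptor gene Cd44 with -0.45 (0.0442). Without a call, Timp1 (0.70; limma adjusted p = 0.0602) and Plaur (0.36; 0.0611) were higher at ZT16. Vegfa (-0.34; 0.0952) and Nab1 (-0.07; 0.729) were lower there without a call. Over the day Vegfa gave -0.26 (0.00133). Of 10 tested heat shock chaperones, only Dnajb1 was called at ZT16 (13.3% of all genes), higher by 0.27 (limma adjusted p = 0.00937). The median of these chaperones was 0.00 beside -0.02 over all genes. The diet difference changed with time for 6 of these 10, beside 12.4% of all genes.

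Markers of the cells a muscle preparation can hold were read at ZT16 as the log2 of the summed linear values per mouse. All 10 satellite cell markers were above the filter, Pax7 with a mean of 10.92. Their sum lay at 13.92 to 14.04 in control and 14.08 to 14.16 in high-fat mice. Sdc4 (0.25), which had the highest mean of the list (12.30), and Calcr (0.585) were called higher. Vcam1 (0.33), Heyl (0.24), Chodl (0.20) and Myf5 (0.14) were higher without a call. Pax7 (0.005) and Fgfr4 (0.01) hardly differed, and Cdh15 (-0.11) and Itga7 (-0.22) were lower without a call. The endothelial sum was 9.63 to 9.89 in control and 10.11 to 10.15 in high-fat mice, with none of 3 tested markers called and Kdr, Emcn and Cldn5 below the filter. The fibro-adipogenic sum was 11.71 to 12.08 against 12.12 to 12.17, with none of 3 called and Pdgfra and Lum below the filter. These 3 sums did not overlap between diets, as held for 8 of the 10 members, and their part in the members' difference was not tested.

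The other sums overlapped between diets at ZT16. Immune markers gave 9.02 to 9.80 in control and 9.23 to 9.27 in high-fat mice, with 6 of 7 below the filter, Ptprc included. Pericyte and smooth muscle markers gave 11.64 to 12.98 and 11.60 to 11.88 (none of 4 called), and erythroid markers 7.41 to 8.42 and 7.80 to 8.00. Schwann cell markers gave 9.24 to 9.745 and 9.33 to 9.625, with Mag called higher by 0.41, and myofibre markers 8.66 to 8.89 and 8.78 to 8.89, with Mylpf called higher by 0.52. In such bulk RNA, fewer cells of a type and less RNA per cell cannot be told apart.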

How the data were processed

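RNA of muscle stem cells was extracted with TRIzol, amplified with WTA2 and hybridised to Affymetrix arrays, per the labels' protocols. The deposited table holds log2 expression values per probe set, made by the authors with RMA per the submitters' processing notes. The version of RMA is not given in the sources used here. RMA sets all arrays to 1 distribution, so a difference is measured against the other genes. Of 45141 probe sets, 28898 carried 1 gene symbol in the platform annotation. The probe set with the highest mean stood for each of 17097 genes, and genes under the 40th percentile (5.80) were left out, which left 10258. Arrays have no read depth, and their number limits the precision.

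Tests used R 4.3.3 and limma 3.58.1 (12 group means, intensity trend, two-sided), with Benjamini-Hochberg adjustment over all 10258 genes at a threshold of 0.05. Rhythms were F tests of a 24 h cosine and sine. Values after ± are SE from limma unless SD is named. Pairs of members were tested with 100000 permutations of mice within groups, two-sided, adjusted over 45 pairs. The models were tested on simulated data. The members and gene lists were chosen with earlier results of these data known. Named genes outside the members were drawn from a pool per list. The pool was up to 5 genes with the smallest interaction p and up to 5 called for the average diet difference. Not every gene of the pool is named, and not every call of a named gene is given. The 6 genes most like the members' mean are named as well, and others named at ZT16 or ZT0 follow from small counts. The replicate numbers of the labels were checked for pairing: of 23 same-numbered pairs of mice, 1 had a correlation of deviations over 0.1 (range -0.19 to 0.11), so they were not used as pairs. Alternatives were another normalization, filter, variance model, probe set rule, array weights and leaving out times or mice. Sequences are from RefSeq (GRCm38.p6), and motifs were searched as letters.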

Additional observations from a re-analysis of the deposited data

Results flagged for a closer look

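Within groups of 4 mice, 6 of 110 sets of member values held a mouse far from the other 3, and chance alone flags about 1 in 20. These were the highest Junb value at high-fat ZT4 (replicate 1, 10.289), the lowest Jund values at control ZT0 (replicate 2, 11.781) and at high-fat ZT0 (replicate 3, 11.863), the highest Fos value at control ZT16 (replicate 2, 12.237), and for Ier2 the lowest value at high-fat ZT0 (replicate 3, 8.03) and the highest at high-fat ZT8 (replicate 4, 8.441). The diet difference itself changed with time for Egr2 (limma adjusted p = 0.00339), Egr1 (0.0282) and Junb (0.0346).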

How the results depend on the processing

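Of 130 counts of called members under other settings, 118 stayed within 1.5 times the count reported. At ZT16, where 5 members were called, cyclic loess gave 6, array weights 7, a fit of the ZT16 mice alone 6 and a variance model without trend 4. With array weights 1 member (Jun) was called at ZT8. With collection day as a random block 1 member (Junb) was called rhythmic on the high-fat diet. Without the ZT0 mice the diet difference changed with time for 1 member, and without the ZT16 mice for 0. Control rhythms were called for 1 member without the ZT4 mice, 1 without ZT8 and 1 without ZT16, and high-fat rhythms for 6 without ZT4 and 1 without ZT16. A rhythm difference was called for 1 member without ZT4. The average diet difference was called for 2 members without ZT12 and 1 without ZT16. Co-varying pairs numbered 22 with group means left in, 0 in control mice and 4 in high-fat mice. The average Jund difference reversed, to -0.078, with its other probe set, an alternative chosen after seeing the data.

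Leaving out each mouse in turn, the members called ranged over 4 to 6 at ZT16, 0 to 1 at ZT0 and at ZT8, 0 to 0 at ZT4, ZT12 and ZT20, 3 to 4 for the average, 1 to 3 for the change with time, 4 to 6 and 6 to 9 for any change over times on the control and high-fat diet, 0 to 0 and 1 to 5 for their rhythms and 0 to 0 for the rhythm difference. The high-fat rhythm count was 1 without replicate 1 of high-fat ZT0 or replicate 3 of high-fat ZT16. With the replicate block, 4 members were called at ZT16, 3 for the average and 2 for the change with time, and Fos (limma adjusted p = 0.0611), Egr1 (0.0608) and Junb (0.0557) lost their respective calls. Settings of RMA could not be varied from the deposited values, and 3 mice at high-fat ZT16, the group most results rest on, limit its precision.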
